A study of Mus musculus with 12 samples.

Results

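Matrix metalloproteinases (MMPs) and their tissue inhibitors (TIMPs) were examined in RNA sequencing libraries of mouse macrophages that had engulfed melanoma corpses. The genes were a chosen list of 6 MMP genes (Mmp8, Mmp9, Mmp12, Mmp13, Mmp14 and Mmp19) and 3 TIMP genes (Timp1, Timp2 and Timp3), found by symbol. They were 9 of 55604 genes counted, and all 9 were among the 16406 genes that passed the filter on low counts and were tested. Levels are CPM, the counts of a gene scaled to the assigned counts of its library and between libraries by TMM factors.

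Each of 3 groups had 4 libraries, called replicates 1 to 4. In the first, macrophages had received corpses of B16-F10 cells, a mouse melanoma line, made to overexpress STC1, a secreted glycoprotein hormone ("STC1 corpses"). The second received corpses of control B16-F10 cells ("control corpses"), and the third received none ("macrophages alone"). All macrophages were grown from C57BL/6 bone marrow with M-CSF, the macrophage growth factor, at 20 ng/ml and used on day 7. Macrophages and corpses were combined at a ratio given as 1 to 5, and the culture lasted 20 h before loose corpses were washed away. How the corpses were made and how STC1 was overexpressed are not given in the sources used here. The study compared the 2 kinds of corpse with each other and with no corpse. Per the series' text the libraries of a group come from independent experiments, and the p-values measure only the spread between these libraries.

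MMPs are zinc-dependent endopeptidases that cleave collagen, elastin, other matrix proteins and many secreted or cell surface proteins. Most are secreted as inactive zymogens and activated by removal of a propeptide, and a few, such as MMP14, are anchored in the plasma membrane. TIMPs bind the active site of MMPs and inhibit them, and TIMP2 also takes part, with MMP14 at the cell surface, in the activation of pro-MMP2. Macrophages are a known source of several MMPs, above all of MMP12, the macrophage elastase. Transcript levels do not measure protease activity, which depends on secretion, zymogen activation and inhibitors.

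Assigned counts per library ran from 28488441 to 39981074, at which 3 counts correspond to 0.0750 to 0.105 CPM. The macrophage label was checked against 10 macrophage markers, all of which were tested and none of which was at 0. Their summed level was 14075 to 15191 CPM with STC1 corpses, 14131 to 15808 CPM with control corpses and 16428 to 17324 CPM in macrophages alone. Of the 10 markers, 4 were called higher and 5 lower with STC1 corpses, where 43.8% of all genes were called. With control corpses 4 were called higher and 6 lower, where 40.1% were. Cd68 and Mertk were among those called higher, and Cd14 among those called lower, in both comparisons. A list of 14 melanocyte markers, leaving out Mitf, which macrophages also express, summed to 12.4 to 13.6 CPM with STC1 corpses, 18.04 to 22.9 CPM with control corpses and 7.18 to 7.80 CPM in macrophages alone. With Mitf the list summed to 121 to 124 CPM with STC1 corpses and 128 to 132 CPM with control corpses. In macrophages alone it summed to 168 to 175 CPM. Of 11 melanocyte markers tested, Mitf included, 9 were called higher and 1, Mitf, was called lower with either kind of corpse. Of all genes tested, 21.4% were called higher and 22.4% lower with STC1 corpses, and 19.7% higher and 20.5% lower with control corpses. With STC1 against control corpses 6 of the 11 markers were called lower, where 2.12% of all genes were. Replicates 1 and 2, and replicates 3 and 4, resembled each other more than they did the other pair in the STC1 group and in macrophages alone, and no label gives a reason. Fewer cells of a type and less RNA per cell cannot be told apart in such libraries of whole cultures.

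With corpses of either kind, 4 of the 6 MMPs, Mmp8, Mmp9, Mmp12 and Mmp13, were lower than in macrophages alone, and Mmp14 and Timp2 were higher. Mmp19, Timp1 and Timp3 did not pass the test in either comparison. A gene was called where the Benjamini-Hochberg adjusted p of edgeR's quasi-likelihood test over all 16406 genes was below 0.05. With STC1 corpses 6 of the 9 genes were called against macrophages alone, 2 higher and 4 lower, where 43.8% of all genes tested were called, 21.4% higher and 22.4% lower. With control corpses 6 were also called, 2 higher and 4 lower, against 40.1% of all genes, 19.7% higher and 20.5% lower. Calls were common here and mostly small. A call past 1.5-fold was reached by 5 of the 9 genes with STC1 corpses and by 4 with control corpses, where 8.58% and 6.81% of all genes reached it. The counts differ by Mmp14 only, which lay at the cutoff, at 1.504-fold with STC1 corpses and 1.493-fold with control corpses. The median log2 fold change of the 9 genes was −0.66 with STC1 corpses, against −0.03 over all genes. With control corpses the 9 genes had a median of −0.47, against −0.00096 over all genes. That median is the value of Timp3, which was not called. Both comparisons use the same 4 libraries of macrophages alone.

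**Figure D1:**
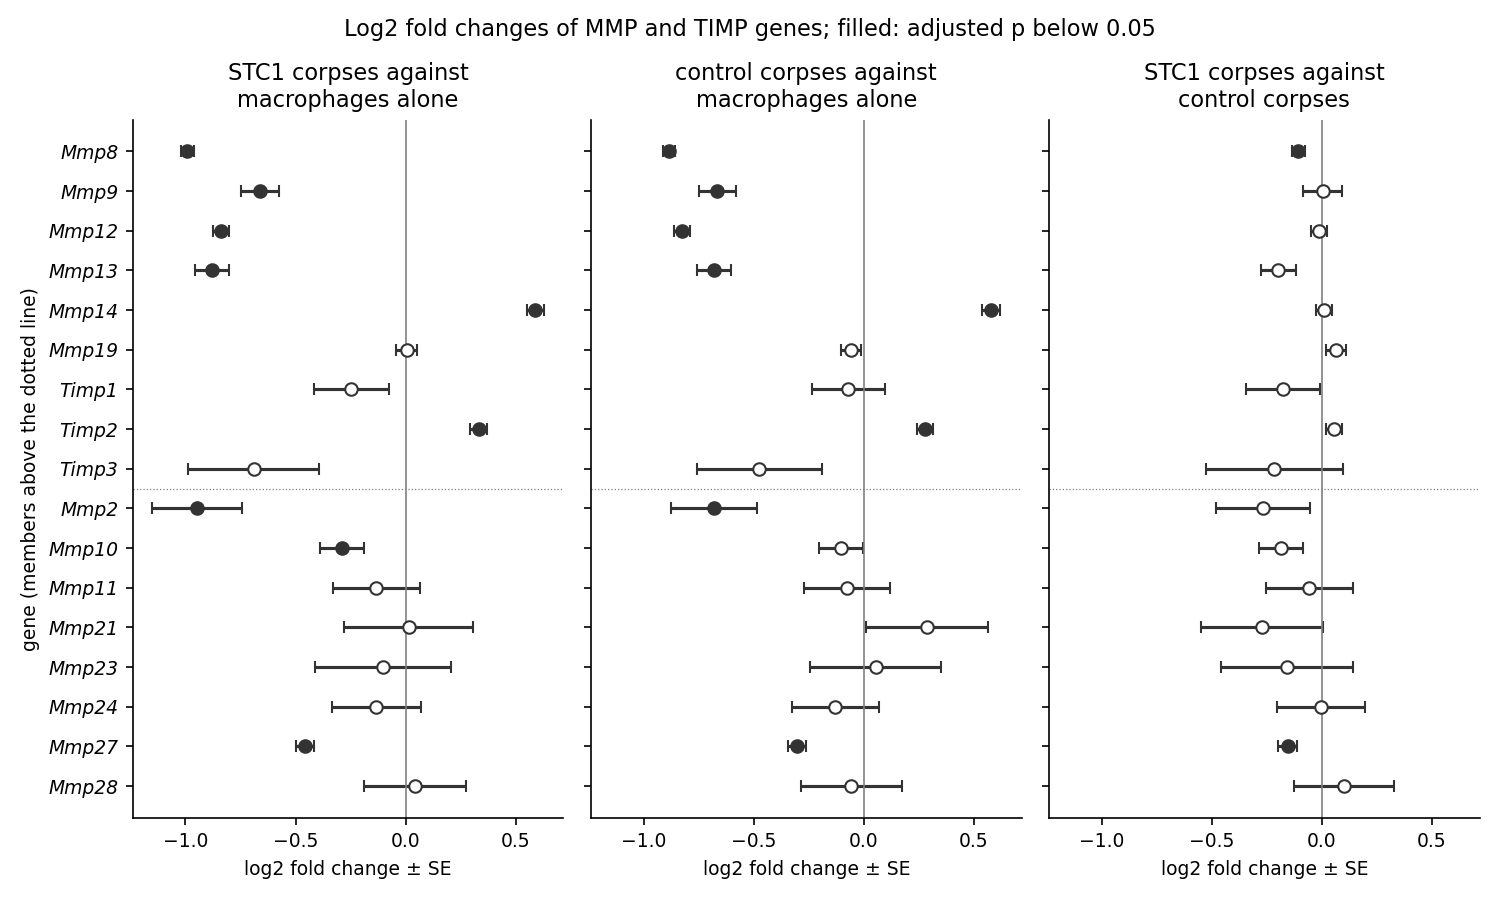
Log2 fold changes (horizontal axis) in the 3 comparisons, with standard errors as bars. The 9 genes are above the dotted line and 8 other tested MMP genes below it. Filled points passed the adjusted threshold and open points did not. Mmp8, Mmp9, Mmp12 and Mmp13 lie left of 0, and Mmp14 and Timp2 right of 0, in both comparisons with macrophages alone. Between the 2 kinds of corpse only Mmp8 of the 9 genes is filled, and Mmp27 below the line.

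To compare genes, CPM were divided by the length of all exons of the gene in kilobases (CPM per kb). Mmp12 had the highest level of the 9 genes in every group, with 227 CPM per kb with STC1 corpses, 230 CPM per kb with control corpses and 407 CPM per kb in macrophages alone. Over all 12 libraries it stood at rank 90 of the 16314 tested genes with a known length. Timp2 came next, with 118, 114 and 93.9 CPM per kb in the same order of groups. Below it came Mmp8 with 34.6, 37.2 and 68.7 CPM per kb and Mmp13 with 24.0, 27.5 and 44.2 CPM per kb. The order of the means was the same in the 3 groups, and it continued with Mmp19, Mmp14, Mmp9, Timp1 and Timp3. In both corpse groups the libraries' ranges of Mmp19 and Mmp14 overlapped, as did those of Mmp9 and Timp1, so these neighbours did not differ beyond their spread there. In macrophages alone no neighbours overlapped, and Mmp19 stood at 9.59 CPM per kb where Mmp14 stood at 6.14 CPM per kb. Timp3 was lowest, at 0.0490 CPM per kb with STC1 corpses, 0.0578 CPM per kb with control corpses and 0.0793 CPM per kb in macrophages alone. Its levels rest on 9 to 32 counts per library.

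**Figure D2:**
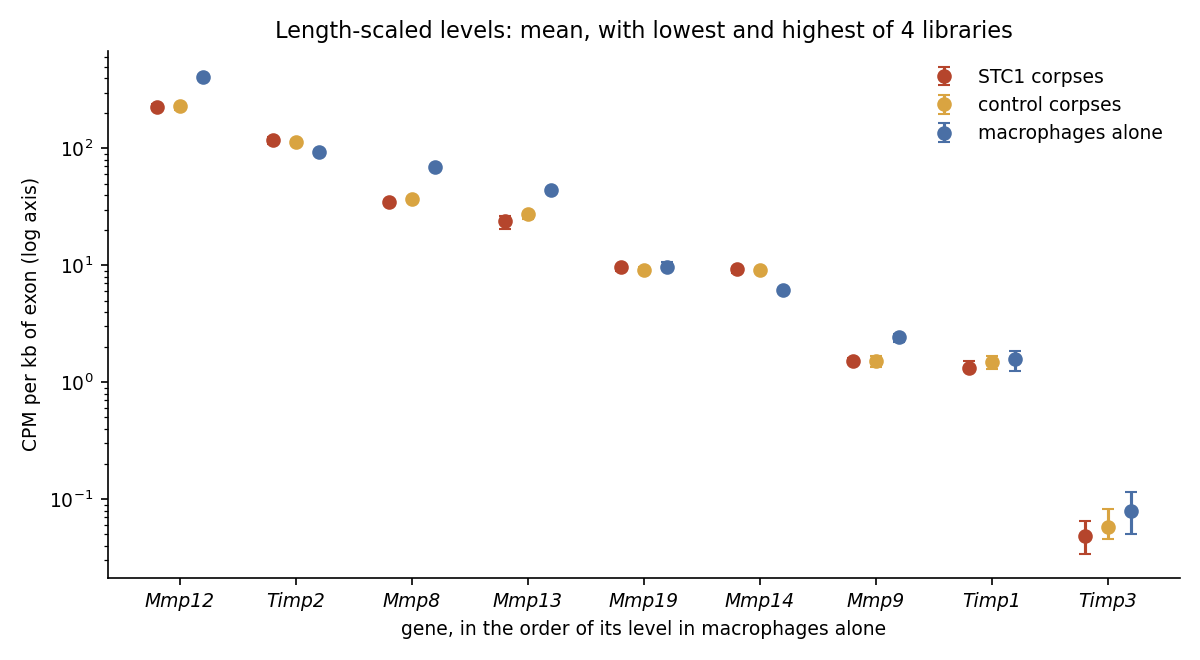
Mean level (points) of each of the 9 genes in CPM per kb of exon (log axis) in macrophages with STC1 corpses, with control corpses and alone. Bars run from the lowest to the highest of the 4 libraries of a group. Mmp12 is highest at 227 to 407 CPM per kb and Timp3 lowest, below 0.1 CPM per kb, in every group.

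Mmp12, the elastin-cleaving macrophage metalloelastase (ENSMUSG00000049723.14, chr9:7344381-7369499, plus strand, GRCm38), was the MMP with the most transcripts. Its levels in replicates 1 to 4 were 1723, 1543, 1663 and 1654 CPM with STC1 corpses, 1715, 1548, 1708 and 1679 CPM with control corpses, and 3086, 2881, 2837 and 2970.4 CPM in macrophages alone. All 8 libraries with corpses lay below all 4 of macrophages alone, and the 2 kinds of corpse overlapped. Relative to macrophages alone, Mmp12 fell by 0.84 ± 0.04 on the log2 scale with STC1 corpses (± SE; edgeR adjusted p = 2.5e-13) and by 0.82 ± 0.04 with control corpses (edgeR adjusted p = 4.11e-13). Its share of all assigned counts was 0.160% with STC1 corpses and 0.167% with control corpses, against 0.301% in macrophages alone. Mmp12 shares 157 bp of exon with Mmp1b on the other strand, and Mmp1b had 0 to 2 counts per library.

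Mmp13, or collagenase-3, which cleaves fibrillar collagen (ENSMUSG00000050578.10, chr9:7272514-7283331, plus strand), lies next to Mmp12. It had 71.1, 54.1, 67.1 and 64.2 CPM with STC1 corpses, 75.7, 66.1, 75.7 and 76.4 CPM with control corpses, and 123, 118, 112 and 119 CPM in macrophages alone. Again every library with corpses lay below every library without. Replicate 2 was the lowest library for both Mmp12 and Mmp13 in the STC1 group and in the control corpse group. Mmp13 fell by 0.88 ± 0.08 on the log2 scale with STC1 corpses (edgeR adjusted p = 5.68e-06) and by 0.68 ± 0.08 with control corpses (edgeR adjusted p = 4.18e-05). Its standard error was about the same size in both comparisons, and larger than that of Mmp12.

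Mmp8, collagenase-2, is best known as a neutrophil granule enzyme and is also made by macrophages (ENSMUSG00000005800.3, chr9:7558456-7568485, plus strand). Its levels were 84.1, 80.4, 83.5 and 87.2 CPM with STC1 corpses, 88.2, 90.5, 92.4 and 90.1 CPM with control corpses, and 171, 162, 168 and 165 CPM in macrophages alone. The 3 groups did not overlap: STC1 corpses were lowest, control corpses next and macrophages alone highest. Mmp8 fell by 0.99 ± 0.03 on the log2 scale with STC1 corpses (edgeR adjusted p = 1.09e-22) and by 0.88 ± 0.03 with control corpses (edgeR adjusted p = 1.98e-21). Of the 9 genes it had the largest fall by estimate in both comparisons. A list of 12 neutrophil markers summed to 4.90 to 6.29 CPM with STC1 corpses, 4.58 to 5.90 CPM with control corpses and 18.7 to 22.2 CPM in macrophages alone. Its 7 tested members were all called lower in both comparisons, where 22.4% of all genes were with STC1 corpses and 20.5% with control corpses. Ly6g, which defines neutrophils, had 0 counts in all 12 libraries. The part of such cells in the level and the change of Mmp8 was not tested.

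Mmp8, Mmp12 and Mmp13 belong to a cluster of 10 MMP genes on chromosome 9, chr9:7272514-7699585, a span of 427.1 kb. In this cluster the transcription start sites of Mmp8, Mmp10, Mmp12, Mmp13 and Mmp27 were searched, and those of its other genes were not. Upstream of the searched starts, 3 stretches carry a match to the AP-1 motif TGANTCA, the binding sequence of Fos and Jun dimers. They are shown with 2 that do not, those of Mmp8 and of Mmp14, which lies elsewhere. The first annotated Mmp12 start and the Mmp27 start, which are not shown, have no such match either. Each is the 250 bases before a start annotated by RefSeq (GRCm38.p6), 5′ to 3′ on the gene's strand, with AP-1 matches and the TATA motif TATAAA in capitals.
Mmp13, chr9:7272264-7272513: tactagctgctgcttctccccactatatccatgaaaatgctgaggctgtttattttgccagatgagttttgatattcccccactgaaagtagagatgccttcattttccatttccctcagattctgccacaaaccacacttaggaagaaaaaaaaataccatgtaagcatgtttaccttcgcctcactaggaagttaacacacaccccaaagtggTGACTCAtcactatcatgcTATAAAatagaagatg
Mmp12, the second of 2 annotated starts, chr9:7347124-7347373: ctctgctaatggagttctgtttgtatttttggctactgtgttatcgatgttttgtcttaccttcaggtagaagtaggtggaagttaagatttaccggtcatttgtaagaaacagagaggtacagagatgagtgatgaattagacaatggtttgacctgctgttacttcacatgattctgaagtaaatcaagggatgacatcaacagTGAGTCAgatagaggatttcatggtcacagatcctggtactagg
Mmp10, chr9:7502092-7502341: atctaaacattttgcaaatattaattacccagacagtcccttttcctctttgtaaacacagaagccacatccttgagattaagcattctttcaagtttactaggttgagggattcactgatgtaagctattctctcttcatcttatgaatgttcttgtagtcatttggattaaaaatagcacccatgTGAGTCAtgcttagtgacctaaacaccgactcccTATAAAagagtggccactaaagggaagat
Mmp8, chr9:7558179-7558428: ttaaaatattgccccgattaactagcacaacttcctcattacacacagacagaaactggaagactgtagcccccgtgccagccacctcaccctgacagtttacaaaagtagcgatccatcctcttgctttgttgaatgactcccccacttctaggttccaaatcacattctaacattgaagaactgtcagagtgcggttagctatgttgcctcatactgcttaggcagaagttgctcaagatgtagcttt
Mmp14, on another chromosome and changed in the other direction, chr14:54431348-54431597: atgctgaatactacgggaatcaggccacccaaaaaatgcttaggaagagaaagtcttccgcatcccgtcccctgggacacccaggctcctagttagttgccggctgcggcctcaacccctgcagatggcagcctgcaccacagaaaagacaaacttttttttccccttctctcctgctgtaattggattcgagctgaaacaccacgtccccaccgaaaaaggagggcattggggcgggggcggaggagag

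The AP-1 match lies 35 to 29 bases before the Mmp13 start, 44 to 38 bases before the second Mmp12 start and 63 to 57 bases before the Mmp10 start. Of the 9 genes, all but Mmp9 and Mmp19 were matched to a promoter, 7 genes with 8 starts. Both strands were searched. AP-1 was matched at 2 of these 8 starts, and at 6.75% of 32851 mouse promoters of the same length. TATAAA was matched at 1 of the 8, that of Mmp13, and at 12.4% of all promoters. The ETS core AGGAAG was matched at 6 of the 8 starts and at 29.5% of all promoters, and the RUNX core ACCACA at 2 of the 8 and at 14% of all. The 5 stretches differ in base composition, from 37.2% G and C for Mmp10 to 55.2% for Mmp14, beside a median of 52.4% over all promoters. A match describes the letters in these windows and not a bound factor.

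Of the 10 MMP genes of the cluster, 5 passed the filter: Mmp13, Mmp12, Mmp10, Mmp8 and Mmp27, in that order along the chromosome. With STC1 corpses all 5 were called lower than in macrophages alone, where 22.4% of all genes tested were. With control corpses 4 were called lower, where 20.5% of all genes were, and Mmp10 was not called. Mmp27, a little-studied MMP next to Mmp8, had 23.9 ± 0.844 CPM with STC1 corpses, 26.6 ± 0.232 CPM with control corpses and 32.8 ± 1.64 CPM in macrophages alone (SD, n = 4 each). It fell by 0.46 ± 0.04 on the log2 scale with STC1 corpses (edgeR adjusted p = 1.35e-10) and by 0.30 ± 0.04 with control corpses (edgeR adjusted p = 3.66e-07). Mmp10, or stromelysin-2, had 5.29 CPM with STC1 corpses, 6.00 CPM with control corpses and 6.47 CPM in macrophages alone. It fell by 0.29 ± 0.10 on the log2 scale with STC1 corpses (edgeR adjusted p = 0.0203), and its value with control corpses was −0.10 ± 0.10 (edgeR adjusted p = 0.443). The grouping by cluster was chosen after values of its genes were known.

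The other 5 genes of the cluster were below the filter. Mmp3, Mmp7 and Mmp20 had 0 counts in all 12 libraries, which in the shallowest library allows up to 0.105 CPM, and Mmp1a and Mmp1b had 0 to 2 counts. The genes that flank the cluster were taken by position. Those given here, Dync2h1, Birc3, Birc2 and Tmem123, did not share one pattern, and Dcun1d5 and Yap1, which also flank it, are not described. Dync2h1, a dynein motor subunit used in cilia, was not called, with log2 fold changes of 0.02 with STC1 corpses and 0.00 with control corpses. Birc3, an inhibitor of cell death, fell by 0.54 ± 0.04 with STC1 corpses (edgeR adjusted p = 3.35e-12) and by 0.51 ± 0.04 with control corpses (edgeR adjusted p = 1.06e-11). Its neighbour Birc2, of the same family, was not called, with −0.10 and −0.03. Tmem123 fell by 0.21 ± 0.03 with STC1 corpses (edgeR adjusted p = 6.18e-06) and by 0.20 ± 0.03 with control corpses (edgeR adjusted p = 1.37e-05).

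**Figure D3:**
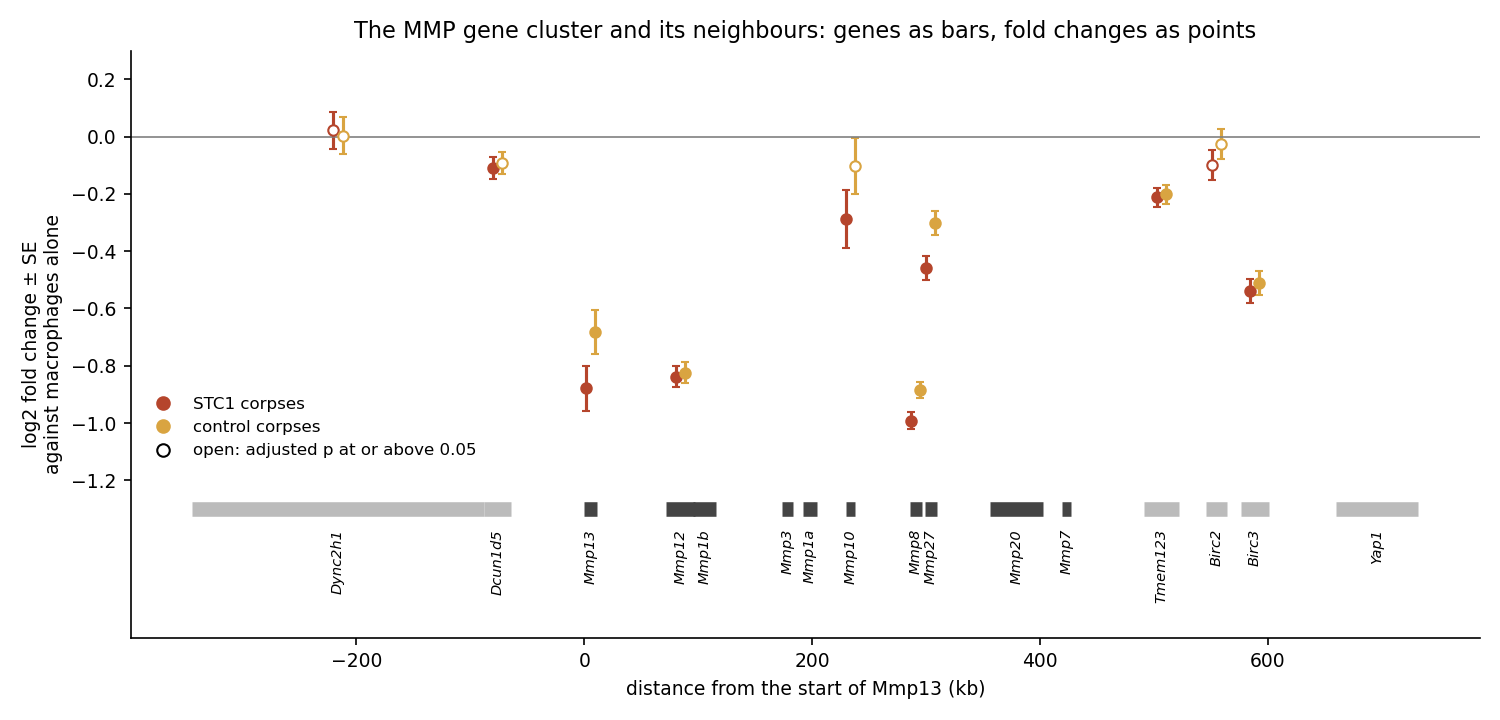
Log2 fold changes against macrophages alone, with standard errors, of the tested genes in and beside the MMP cluster, by their distance along the chromosome from the first MMP gene in kilobases. The 5 MMP genes lie below 0 for both kinds of corpse, with Mmp8, Mmp12 and Mmp13 lowest, and the flanking genes lie between about 0 and the value of Birc3.

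Mmp9, or gelatinase B, which degrades denatured collagen and basement membrane collagen (ENSMUSG00000017737.2, chr2:164940780-164955850, plus strand), lies outside the cluster. It had 5.12, 5.38, 5.70 and 5.41 CPM with STC1 corpses, 5.75, 4.95, 5.97 and 4.83 CPM with control corpses, and 9.19, 9.08, 7.89 and 8.05 CPM in macrophages alone. The libraries with corpses all lay below those without, and the 2 kinds of corpse overlapped. Mmp9 fell by 0.66 ± 0.09 on the log2 scale with STC1 corpses (edgeR adjusted p = 1.62e-07) and by 0.67 ± 0.09 with control corpses (edgeR adjusted p = 1.36e-07). In macrophages alone replicates 1 and 2 were above replicates 3 and 4. From replicates 1 and 2 alone, the log2 fold change was −0.80 with STC1 corpses and −0.77 with control corpses. From replicates 3 and 4 alone it was −0.52 with STC1 corpses and −0.56 with control corpses. Both pairs called Mmp9 lower in both comparisons. Mmp9 is also a neutrophil granule enzyme, and the neutrophil markers above were lower in the same libraries. Their part in its change was not tested.

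Mmp14, the membrane-anchored collagenase also called MT1-MMP (ENSMUSG00000000957.11, chr14:54431612-54445364, plus strand), was the one MMP of the 6 that was called higher. It had 51.5, 54.6, 56.9 and 57.4 CPM with STC1 corpses, 54.9, 55.1, 52.2 and 56.7 CPM with control corpses, and 34.9, 37.2, 38.2 and 36.2 CPM in macrophages alone. Every library with corpses was above every library without, and the 2 kinds of corpse overlapped. Mmp14 rose by 0.59 ± 0.04 on the log2 scale with STC1 corpses (edgeR adjusted p = 9.35e-14) and by 0.58 ± 0.04 with control corpses (edgeR adjusted p = 1.57e-13).

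Timp2, an inhibitor of most MMPs and the partner of MMP14 in pro-MMP2 activation (ENSMUSG00000017466.9, chr11:118301069-118355740, minus strand), was the TIMP with nearly all TIMP transcripts. It had 429, 465, 461 and 488 CPM with STC1 corpses, 417, 460.4, 437 and 459.98 CPM with control corpses, and 349.7, 366, 368 and 379 CPM in macrophages alone. All libraries with corpses again lay above those without, by a smaller margin than for Mmp14. Timp2 rose by 0.33 ± 0.04 on the log2 scale with STC1 corpses (edgeR adjusted p = 1.12e-06) and by 0.28 ± 0.04 with control corpses (edgeR adjusted p = 1.1e-05). Both changes were below 1.5-fold. Against a change of 1.2-fold, edgeR's glmTreat test gave adjusted p-values of 0.0826 with STC1 corpses and 0.638 with control corpses. The melanocyte markers other than Mitf were also higher in sum in the libraries with corpses. How much of Mmp14 or Timp2 came from corpse RNA was not tested.

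**Figure D4:**
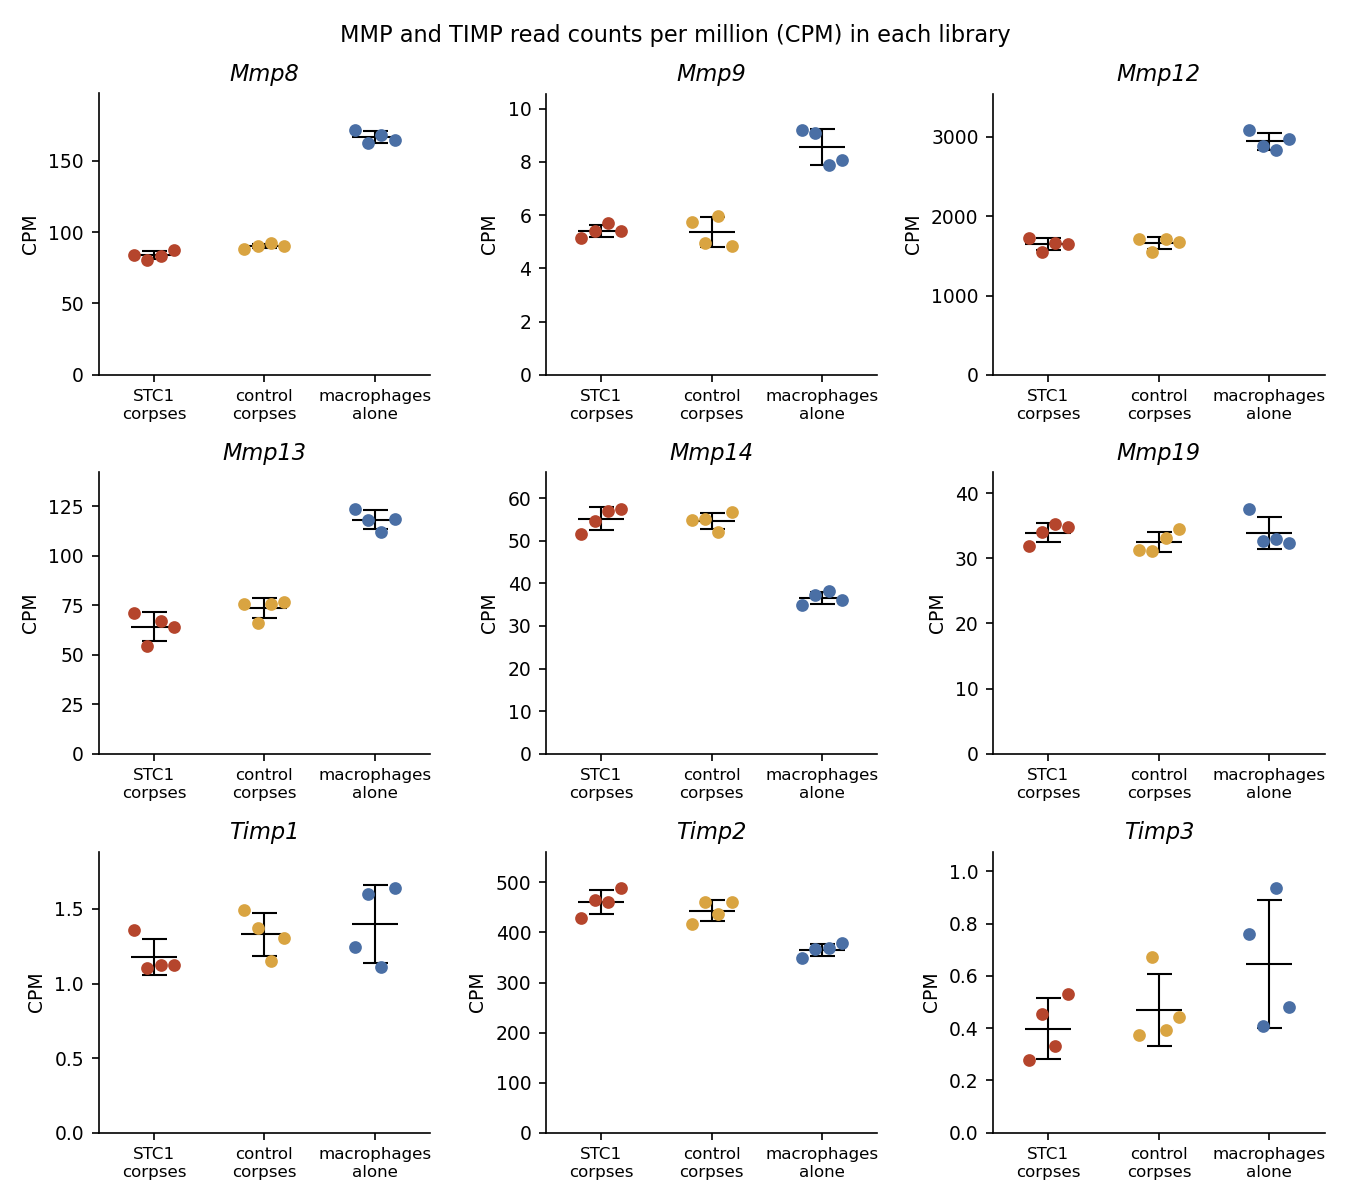
Level of each of the 9 genes in CPM in every library (points) of macrophages with STC1 corpses, with control corpses and alone, with the mean and SD of 4 libraries as bars; each panel has its own axis from 0. The groups with corpses lie below macrophages alone for Mmp8, Mmp9, Mmp12 and Mmp13, above them for Mmp14 and Timp2, and overlap them for Mmp19, Timp1 and Timp3.

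Mmp19, an MMP of broad substrate range (ENSMUSG00000025355.7, chr10:128790910-128800824, plus strand), had 34.0 ± 1.48 CPM with STC1 corpses, 32.5 ± 1.56 CPM with control corpses and 33.9 ± 2.46 CPM in macrophages alone (SD, n = 4 each). The 3 groups overlapped, and its log2 fold change against macrophages alone was 0.01 ± 0.05 with STC1 corpses and −0.06 ± 0.05 with control corpses. Mmp19 shares 789 bp of exon with Tmem198b on the other strand. Timp1, an inhibitor that also binds pro-MMP9 (ENSMUSG00000001131.11, chrX:20870166-20874735, plus strand), had 1.18 ± 0.121 CPM with STC1 corpses, 1.33 ± 0.144 CPM with control corpses and 1.40 ± 0.261 CPM in macrophages alone (SD, n = 4 each). These levels rest on 34 to 60 counts per library. Its log2 fold change was −0.25 ± 0.17 with STC1 corpses and −0.07 ± 0.17 with control corpses, and neither was called.

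Timp3, the TIMP that binds to the extracellular matrix and also inhibits ADAM17 (ENSMUSG00000020044.13, chr10:86300372-86349506, plus strand), had 9 to 32 counts per library. Its levels were 0.278, 0.454, 0.331 and 0.532 CPM with STC1 corpses, 0.373, 0.672, 0.392 and 0.444 CPM with control corpses, and 0.760, 0.408, 0.936 and 0.480 CPM in macrophages alone. The groups overlapped, and 2 libraries of macrophages alone were above all others. The log2 fold change was −0.69 ± 0.30 with STC1 corpses (edgeR adjusted p = 0.061) and −0.47 ± 0.28 with control corpses (edgeR adjusted p = 0.196). At this depth a change of Timp3 could not be told from the spread between libraries. Timp3 shares 1733 bp of exon with Syn3 on the other strand, and the strand setting used in counting is not stated.

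Ratios of CPM per kb were formed within each library, as a description and with no test. The 6 MMPs summed to 2.57 ± 0.211 times the 3 TIMPs with STC1 corpses, 2.73 ± 0.213 times with control corpses and 5.64 ± 0.351 times in macrophages alone (SD, n = 4 each). Without Mmp12 the ratio was 0.661 with STC1 corpses and 0.734 with control corpses, against 1.37 in macrophages alone. The ratio of Mmp14 to Timp2 was 0.0782 ± 0.00185 with STC1 corpses and 0.0807 ± 0.00375 with control corpses, against 0.0655 ± 0.00225 in macrophages alone. The libraries with corpses of either kind all lay below macrophages alone for the MMP to TIMP ratio, with and without Mmp12, and all above them for Mmp14 to Timp2. The ratio of Mmp9 to Timp1 was 1.16 ± 0.146 with STC1 corpses and 1.03 ± 0.187 with control corpses, against 1.57 ± 0.295 in macrophages alone, and the groups overlapped. These are ratios of transcripts and do not measure how much protease was inhibited.

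**Figure D5:**
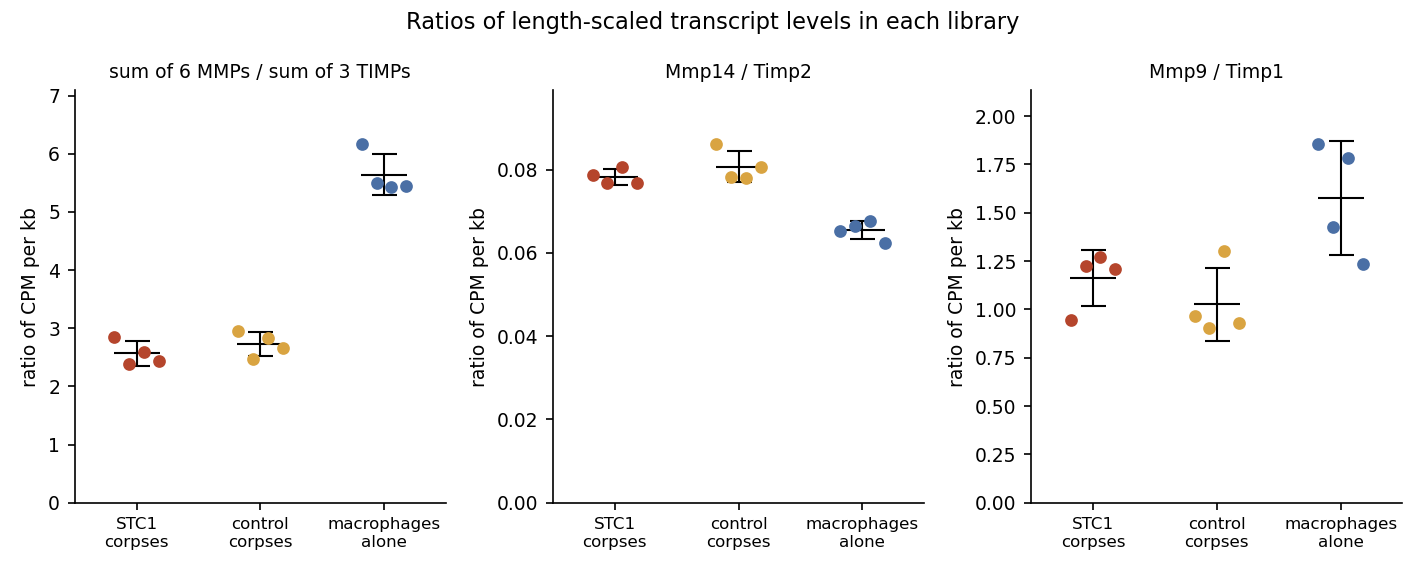
Ratios of CPM per kb within each library (points), with mean and SD of 4 libraries: the 6 MMPs over the 3 TIMPs, Mmp14 over Timp2, and Mmp9 over Timp1, in macrophages with STC1 corpses, with control corpses and alone. The MMP to TIMP ratio is between 2 and 3 with corpses of either kind and above 5 in macrophages alone.

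Between the 2 kinds of corpse the 9 genes differed little. With STC1 corpses against control corpses 1 of the 9 was called, Mmp8, which was lower, where 5.44% of all genes tested were called and 2.12% were called lower. Its log2 difference was −0.11 ± 0.03 (edgeR adjusted p = 0.0247), with means of 83.8 ± 2.79 CPM with STC1 corpses and 90.3 ± 1.73 CPM with control corpses (SD, n = 4 each). The call was lost when replicate 2 of the STC1 group (adjusted p of edgeR 0.091), replicate 3 of it (0.0754), replicate 3 of the control corpse group (0.106) or replicate 4 of that group (0.0526) was left out. It was also lost in replicates 1 and 2 alone, in replicates 3 and 4 alone (edgeR adjusted p = 0.0535) and against a change of 1.2-fold. Mmp13 had a lower estimate and a wider error, −0.20 ± 0.08 (edgeR adjusted p = 0.213), with means of 64.1 ± 7.23 CPM with STC1 corpses and 73.5 ± 4.91 CPM with control corpses. From replicates 3 and 4 alone, Mmp13 was called lower at −0.21 (edgeR adjusted p = 3.26e-05). In the same libraries Timp2 was called higher at 0.08 (edgeR adjusted p = 0.0443). Replicates 1 and 2 alone called none of the 9. For Mmp9, Mmp12 and Mmp14 the log2 fold changes were 0.00 ± 0.09, −0.01 ± 0.04 and 0.01 ± 0.04. In the cluster, Mmp27 was also called, at −0.16 ± 0.04 (edgeR adjusted p = 0.0252). The melanocyte markers were lower with STC1 corpses than with control corpses, and their part in these differences was not tested.

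Of 18 other MMP and TIMP genes, Timp4 among them, 8 were tested and none was called higher in any comparison. Besides Mmp27 and Mmp10, Mmp2 was called lower. Mmp2, or gelatinase A, whose proenzyme MMP14 activates, is below the level set for naming and was named after its values were seen. It had 0.668 ± 0.124 CPM with STC1 corpses, 0.799 ± 0.160 CPM with control corpses and 1.28 ± 0.191 CPM in macrophages alone (SD, n = 4 each), and fell by 0.95 ± 0.20 on the log2 scale with STC1 corpses (edgeR adjusted p = 0.000285). With control corpses Mmp2 fell by 0.68 ± 0.19 (edgeR adjusted p = 0.00516). The other 10 genes were not tested, and the highest count among them was 14.

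Other proteases and partners of MMPs were read as lists, each count beside the share of all tested genes called against macrophages alone, 43.8% with STC1 corpses and 40.1% with control corpses. Of 14 tested genes of the related ADAM and ADAMTS families, 3 were called higher and 5 lower with STC1 corpses, and 1 higher and 5 lower with control corpses, against 43.8% and 40.1% of all genes called in either direction; the second count is near that share. Adam19, a membrane protease, had 33.8 CPM with STC1 corpses, 34.7 CPM with control corpses and 72.4 CPM in macrophages alone, log2 fold changes of −1.10 ± 0.05 (edgeR adjusted p = 7.01e-12) and −1.06 ± 0.05 (edgeR adjusted p = 1.17e-11). Adamts10, which binds fibrillin microfibrils, had 14.7 CPM with STC1 corpses, 17.6 CPM with control corpses and 26.1 CPM in macrophages alone. It was also lower with STC1 than with control corpses, by −0.26 ± 0.06 (edgeR adjusted p = 0.00806). Adam17, the TNF-releasing sheddase that TIMP3 inhibits, was at 250.4 CPM with STC1 corpses and 228 CPM with control corpses, a log2 difference of 0.13 ± 0.02 (edgeR adjusted p = 0.000708).

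Of 8 tested genes of plasminogen activation, a route by which MMP zymogens are activated, 1 was called higher and 3 lower with either kind of corpse, near the 43.8% and 40.1% of all genes called. Anxa2, a cell surface docking protein for plasminogen, was at 651 CPM with STC1 corpses, 637 CPM with control corpses and 772 CPM in macrophages alone, and was called lower in both comparisons. Plau, the urokinase activator itself, was not called, at 1404 CPM with STC1 corpses, 1403 CPM with control corpses and 1493 CPM in macrophages alone.

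Of 11 tested genes for activation, docking or clearance of MMPs, 3 were called higher and 3 lower with STC1 corpses, where 43.8% of all genes were called, and 3 higher and 5 lower with control corpses, where 40.1% were. Thbs1, or thrombospondin-1, which binds MMPs for uptake, had 91.6 CPM with STC1 corpses, 83.0 CPM with control corpses and 209.6 CPM in macrophages alone, log2 fold changes of −1.19 ± 0.08 (edgeR adjusted p = 3.84e-07) and −1.34 ± 0.08 (edgeR adjusted p = 1.76e-07). Cd63, a tetraspanin that binds TIMP1, had 691 CPM with STC1 corpses, 634 CPM with control corpses and 529 CPM in macrophages alone. Bsg, or basigin, an inducer of MMPs in neighbouring cells, had 186 CPM with STC1 corpses, 168 CPM with control corpses and 145.02 CPM in macrophages alone. Cd63 and Bsg were called higher in both comparisons and also with STC1 against control corpses, where Cd63 differed by 0.12 ± 0.02 (edgeR adjusted p = 0.00144) and Bsg by 0.15 ± 0.03 (edgeR adjusted p = 0.000797).

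The lysosomal cysteine cathepsins and their cystatin inhibitors, another matrix-degrading system of macrophages, had 6 genes called higher and 4 lower of 12 tested with either kind of corpse, where 43.8% of all genes were called with STC1 corpses and 40.1% with control corpses. Their median log2 fold change was 0.35 with STC1 corpses and 0.22 with control corpses, against −0.03 and −0.00096 over all genes. Ctsz, a carboxypeptidase cathepsin, had 1478 CPM with STC1 corpses, 1373 CPM with control corpses and 904.5 CPM in macrophages alone. Ctsl, a lysosomal endopeptidase, had 3197 CPM with STC1 corpses, 3304 CPM with control corpses and 2371 CPM in macrophages alone. Ctsf was lower, with 6.79 CPM with STC1 corpses, 6.87 CPM with control corpses and 9.26 CPM in macrophages alone. Ctss was also called lower in both comparisons, with 2459 CPM with STC1 corpses, 2536 CPM with control corpses and 3157 CPM in macrophages alone.

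Of 16 tested genes of collagen uptake, modification and cross-linking, 7 were called higher and 3 lower with STC1 corpses (43.8% of all genes called), and 8 higher and 2 lower with control corpses (40.1% of all genes). Plod1, a collagen lysyl hydroxylase, had 238 CPM with STC1 corpses, 222 CPM with control corpses and 148.1 CPM in macrophages alone. P4ha2, a subunit of collagen prolyl hydroxylase, had 17.8 CPM with STC1 corpses, 14.0 CPM with control corpses and 10.8 CPM in macrophages alone. P4ha2 was also higher with STC1 than with control corpses, by 0.35 ± 0.06 on the log2 scale (edgeR adjusted p = 0.000431). Of 26 tested matrix and matricellular proteins, 5 were called higher and 8 lower with either kind of corpse, beside the same 43.8% and 40.1% of all genes. Emilin1, an elastic fibre glycoprotein, had 150.8 CPM with STC1 corpses, 140.0 CPM with control corpses and 86.2 CPM in macrophages alone. Vcan, the proteoglycan versican, had 2.08 CPM with STC1 corpses, 2.19 CPM with control corpses and 3.83 CPM in macrophages alone.

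Among 17 tested AP-1, ETS and RUNX factors, whose motifs were searched above, 6 were called higher and 7 lower with STC1 corpses, where 21.4% of all genes were called higher and 22.4% lower. With control corpses 5 were called higher and 7 lower, where 19.7% and 20.5% of all genes were. Fosl1, a Fos family protein, rose by 0.69 ± 0.16 on the log2 scale with STC1 corpses (edgeR adjusted p = 0.00127) and by 0.67 ± 0.16 with control corpses (edgeR adjusted p = 0.00166), at 3.39 CPM with STC1 corpses, 3.33 CPM with control corpses and 2.11 CPM without corpses. Junb fell by 0.37 ± 0.04 with STC1 corpses (edgeR adjusted p = 7.77e-09) and by 0.43 ± 0.04 with control corpses (edgeR adjusted p = 8.38e-10). It had 132 CPM with STC1 corpses, 127 CPM with control corpses and 171 CPM in macrophages alone. Jun was called higher with STC1 than with control corpses, by 0.16 ± 0.03 (edgeR adjusted p = 0.00784). Against macrophages alone Jun rose by 0.35 ± 0.03 with STC1 corpses (edgeR adjusted p = 1.17e-08) and by 0.19 ± 0.03 with control corpses (edgeR adjusted p = 6.75e-05). AP-1 genes were called in both directions, and their part in the levels of the cluster MMPs was not tested. Elastase inhibitors and serine proteases had 3 genes called higher and 1 lower of 7 tested with either kind of corpse, beside 43.8% and 40.1% of all genes called.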

How the data were processed

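Sample titles gave the group and replicate number of each library. The authors deposited raw read counts per gene, 1 table per library, which sum to 28488441 to 39981074 assigned counts; per the submitters' processing notes, which name no versions, the tools were HISAT2, HTSeq and DESeq2 and the builds mm10 and GRCm38. Neither the annotation release nor the strand setting of the counting is given in the sources used here. Reads from exons shared with a gene on the other strand therefore cannot be told apart. Per the labels, mRNA libraries (TruSeq) were read at both ends on a NovaSeq. Lines of the tables without a gene counted toward no library size or test: no feature (10.6% to 14.7% of reads), ambiguous (5.53% to 6.62%), low quality (5.17% to 5.85%), not aligned (10.8% to 17.8%) and not unique (5.74% to 7.03%).

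A symbol was found for 54723 identifiers, matched without version, and for 881 there was none. Positions and exon lengths are those of GENCODE M21 on GRCm38, in which 54809 identifiers were found. Tests used edgeR 4.0.16 (R 4.3.3), after filterByExpr with at least 10 counts and a total of 15 or more, and TMM factors. Quasi-likelihood models with robust dispersion had 1 mean for each group over the 12 libraries; p-values are two-sided and adjusted by Benjamini and Hochberg's method, with 0.05 as threshold. The standard error of a log2 fold change was its size over the square root of its F value. The biological coefficient of variation was 4.53%. The steps were tested on simulated data. Intervals from depth cover counting error only: 3 counts in a library correspond to 0.0750 to 0.105 CPM.

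Within groups, replicates differed beyond sampling noise (chi-square per degree of freedom 2.73 to 17.1), so each was counted as 1 sample. Alternatives were RLE size factors, upper quartile scaling, library totals only, no low-count filter, only the 2 groups compared, a replicate block, a test against 1.2-fold, DESeq2 1.42.0, replicates 1 and 2 or 3 and 4 only, and each library left out. From each gene list, up to 3 called genes per comparison with the largest change and at least 2 CPM could be named, and for each of the 9 genes the 2 most like it. Not every such gene is named; a few results are not reported here. Genes named outside this rule were Mmp2, Mmp1a, Mmp1b and the untested genes of the cluster, Plau, Ctss, Mitf, Ly6g and the genes beside the cluster. The 9 genes, the lists and the alternatives were chosen with earlier results of these data known.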

Additional observations from a re-analysis of the deposited data

Results flagged for a closer look

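In 3 of the 27 sets of 4 libraries examined (9 genes in 3 groups), 1 library stood farther from the other 3 than a Dixon test at the 95% level allows. Chance gives about 1 in 20 such sets. Mmp13 in replicate 2 of the control corpse group was at 66.1 CPM, below the other 3 libraries at 75.7 to 76.4 CPM. Mmp19 in replicate 1 of macrophages alone was at 37.5 CPM, above the other 3 at 32.3 to 32.9 CPM. Timp1 in replicate 1 of the STC1 corpse group was at 1.36 CPM, above the other 3 at 1.10 to 1.13 CPM.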

How the results depend on the processing

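The 6 genes called against macrophages alone kept direction and call in both comparisons under all alternatives, except Timp2 against a change of 1.2-fold. There 1 of the 9 genes was called higher in each comparison. That test left 2119 of 7186 genes called with STC1 corpses, 1687 of 6582 with control corpses and 4 of 893 between the corpse groups; replicates 1 and 2 only left 4650, 4090 and 33, with fewer libraries. Between the corpse groups replicates 3 and 4 only gave 1925, and leaving out each library gave 474 to 1200. Of the 9 genes, the count called lower between the corpse groups was 0 against 1.2-fold, 0 in replicates 1 and 2 and 0 to 1 with a library left out. Replicates 3 and 4 called 1 of the 9 higher (Timp2). Reversed log2 fold changes were all of uncalled genes. Mmp19 with STC1 corpses was −0.0070 under upper quartile scaling, −0.0683 under library totals, −0.0917 in replicates 1 and 2 and −0.0170 to 0.0669 with a library left out. Mmp19 with control corpses was 0.0479 in replicates 3 and 4 and −0.0879 to 0.0032 with a library left out, and Timp1 was 0.0144 in replicates 1 and 2 and −0.171 to 0.0210. Between the corpse groups Mmp9 was −0.0065, −0.0444 and −0.0289 under upper quartile scaling, library totals and replicates 1 and 2, and −0.0426 to 0.0575 with a library left out; Mmp14 was −0.00033, −0.0385 and −0.0503, and −0.0120 to 0.0409; Mmp12 was 0.0032 in replicates 1 and 2 and −0.0477 to 0.0147; Timp3 was 0.0621 in replicates 3 and 4. Timp3 with STC1 corpses was called lower under library totals (−0.76, adjusted p = 0.0346 by edgeR) and without STC1 replicate 4, or replicate 2 or 4 of macrophages alone. The cause of these shifts was not tested. The largest shift of the median of all genes under another scaling was −0.0737 (log2, library totals). DESeq2 gave no adjusted p for Timp1 and Timp3 between the corpse groups. Same-numbered libraries deviated together little or not at all (correlations over 16406 genes −0.0434 to 0.0912). Every gene weighed the same there, whatever its counts, so whether the numbers pair the libraries was not settled. A replicate block gave 7300, 6712 and 1089 genes called, with 2, 2 and 0 of the 9 genes higher and 4, 4 and 1 lower. Depth limits Timp1 and Timp3, with at most 60 and 32 counts per library.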

Other observations

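The genes whose levels across the 12 libraries were most like those of each of the 9 genes were taken from 1759 genes, by the Pearson coefficient of log2 CPM. The coefficients mostly follow the difference between macrophages with and without corpses and are given as a description. Among the genes most like Mmp12 was Efr3b (0.996, and 0.758 for deviations within groups). Mmp8 was closest to Cytip (0.998, within groups 0.769), Mmp13 to Rasa1 (0.987), and Mmp9 to Thap6 (0.976). Mmp14 was closest to Il18bp, which encodes a secreted binder of interleukin-18 (0.993), and Timp2 to Rxra, a nuclear receptor (0.991, within groups 0.943). For Mmp19, Timp1 and Timp3, which were not called, the highest coefficients were 0.599, 0.715 and 0.885.

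Markers of osteoclasts, which are derived from the macrophage lineage and degrade bone matrix, did not move together. Acp5, the acid phosphatase, was at 15.9 CPM with STC1 corpses, 15.4 CPM with control corpses and 7.59 CPM in macrophages alone. Dcstamp, a fusion protein of osteoclast precursors, was at 9.33 CPM with STC1 corpses, 11.2 CPM with control corpses and 35.9 CPM in macrophages alone. Of 7 osteoclast markers tested, 4 were called higher and 3 lower with STC1 corpses, and 3 higher and 4 lower with control corpses, where 43.8% and 40.1% of all genes tested were called. Fibroblast markers summed to 15.7 to 17.6 CPM with STC1 corpses, 15.0 to 19.4 CPM with control corpses and 21.1 to 28.1 CPM in macrophages alone, and 3 of 5 tested were called lower in both comparisons, where 22.4% and 20.5% of all genes were. Markers of dendritic cells, B cells, T and NK cells, and mast cells and basophils each summed to less than 3 CPM in every library.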
